A study of Mus musculus with 2 samples.

Results

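Granzymes and perforin are the cargo of the cytotoxic granules of T and natural killer (NK) cells, and 10 of their genes were described here out of 22620 genes in the tables of both libraries. The members were chosen by gene symbol, with their raw molecule counts in T, NK and other cells of these same libraries in view: Gzma, Gzmb, Gzmc, Gzmd, Gzme, Gzmf, Gzmg, Gzmk and Gzmm, which encode granzymes A, B, C, D, E, F, G, K and M, and Prf1, which encodes perforin. All 10 were found. Because the measured values took part in that choice, the levels below are a description and carry no test. The samples were the primary tumours grown from EO771-HEVM3 cells, a derivative of the mouse breast cancer line EO771 that had been obtained by 3 rounds of selection, and the lymph nodes paired with those tumours. Both tissues came from 6 C57BL/6J mice, obtained at 5 to 6 weeks of age according to the methods of the study, and the mice were pooled into 1 library per tissue. The labels name no further allele, treatment or sort, and every animal carried a tumour, so there was no tumour-free lymph node.

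As background, a cytotoxic lymphocyte docks on its target and releases granules into the contact zone. Perforin then forms pores in the target membrane and lets the granzymes, a family of serine proteases, reach the cytosol. Granzyme B cleaves after aspartate and activates caspases, granzymes A and K are tryptases that cut after basic residues, and granzyme M cuts after methionine or leucine. Granzymes C to G lie beside granzyme B in rodents and are known from strongly activated T and NK cells. Naive T cells hold few or none of these transcripts, effector CD8 T cells and NK cells hold many, and activated regulatory T cells can use granzyme B as well.

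Transcripts were read as unique molecular identifiers (UMIs) from droplets. The primary tumour table held 12427 cells and 173317475 UMIs and that of the lymph node 11617 cells and 122207852 UMIs, of which 8756 (70.5%) and 9689 (83.4%) cells were kept. Kept cells held a median of 9383 UMIs in the tumour and 2324 in the lymph node. Cells were clustered without the members, and clusters were named from fixed markers, so names are written as X-like. T-like and NK-like cells numbered 606 in the tumour library, with a median of 1588 UMIs, and 3730 in the lymph node, with a median of 2976; the cancer-like class held 6125 and 610 cells, and the B-like class 9 and 4618. The libraries shared 31 cell barcodes among kept cells, which held 13 member UMIs in the tumour and 0 in the lymph node. With 1 library per tissue there was no replicate, and the enzymes and length of digestion differed between the tissues, so effects of tissue, digestion and library cannot be told apart. Levels are given as UMIs of a gene per 1000000 UMIs of the class (CPM), with an exact Poisson interval in square brackets; these intervals, and the exact binomial ones on shares, are at 95% and cover counting error only. The counts come from transcript 3′ ends and are not scaled by transcript length.

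Of the 10 genes, 6 lie side by side on the minus strand of chromosome 14. In the GENCODE annotation of GRCm38 the cluster runs from Gzme at position 56117626 to the start of Gzmb at 56262260, a span of 144.6 kb that also holds Gzmn, a further granzyme gene with 0 UMIs in CD8 T-like and NK-like cells. Gzmd, Gzmg, Gzmf, Gzmc and Gzmb follow in that order after Gzme, and each of the 6 has 5 exons. Gzma (113093825 to 113100981) and Gzmk (113171608 to 113225908) lie on the minus strand of chromosome 13 with 6 exons each. Gzmm (79689020 to 79695261, 5 exons) and Prf1 (61297833 to 61304680, 3 exons) lie on the plus strand of chromosome 10. The annotated span of Gzmf overlaps Gm4022 and that of Gzmk overlaps Esm1.

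The copies on chromosome 14 are near-identical in part, which bears on how far their counts can be separated. Over the aligned bases of their transcripts, with gaps and unaligned ends left out, Gzmd, Gzme, Gzmf and Gzmg were 87.6% to 94.8% identical to each other. Gzmc was 76.1% to 76.8% identical to them, and Gzmb 70.8% to 77.8% identical to Gzmc to Gzmg. By the same measure Prf1, which is no granzyme, was 62.4% (Gzma) to 68.4% (Gzmf) identical to the granzymes. In the last 500 bases of the transcript, where these libraries read, 20.6% of the 50-base words of Gzmd, 18.2% of those of Gzme, 14.4% of those of Gzmg and 7.10% of those of Gzmf also occurred in another gene, against 0 for the other 6 members. Reads that match several genes are discarded by the counting software, so the counts of Gzmd to Gzmg are uncertain relative to each other, and values for Gzmc to Gzmg are therefore also given as a group.

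Because Gzmc to Gzmg often appeared together in tumour CD8 T-like cells, as described further on, the start regions of Gzmc, Gzmd and Gzmf are shown beside those of their neighbour Gzmb and of Prf1. Each sequence is the 250 bases before the RefSeq start site (GRCm38.p6), read 5′ to 3′ on the strand of the gene. Capitals mark the 6-base word TGTGGT, the core bound by Runx factors, or ACCACA where it lies on the opposite strand. The regions are chr14:56262335-56262584 (minus strand) for Gzmb, chr14:56234658-56234907 (minus) for Gzmc, chr14:56132594-56132843 (minus) for Gzmd, chr14:56211408-56211657 (minus) for Gzmf and chr10:61297586-61297835 (plus) for Prf1.
Gzmb: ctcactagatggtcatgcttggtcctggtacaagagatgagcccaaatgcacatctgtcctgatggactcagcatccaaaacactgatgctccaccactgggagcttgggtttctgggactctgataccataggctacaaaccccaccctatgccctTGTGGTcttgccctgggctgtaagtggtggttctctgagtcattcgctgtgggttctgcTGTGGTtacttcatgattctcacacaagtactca
Gzmc: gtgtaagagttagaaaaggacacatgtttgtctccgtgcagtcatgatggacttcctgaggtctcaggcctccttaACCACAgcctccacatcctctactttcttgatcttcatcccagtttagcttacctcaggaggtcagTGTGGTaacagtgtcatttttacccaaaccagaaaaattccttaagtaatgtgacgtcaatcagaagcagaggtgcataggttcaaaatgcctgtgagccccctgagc
Gzmd: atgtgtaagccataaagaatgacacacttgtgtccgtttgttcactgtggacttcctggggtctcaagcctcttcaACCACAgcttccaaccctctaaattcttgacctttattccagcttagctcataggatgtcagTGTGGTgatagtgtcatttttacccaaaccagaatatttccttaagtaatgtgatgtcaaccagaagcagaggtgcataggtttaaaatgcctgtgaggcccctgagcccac
Gzmf: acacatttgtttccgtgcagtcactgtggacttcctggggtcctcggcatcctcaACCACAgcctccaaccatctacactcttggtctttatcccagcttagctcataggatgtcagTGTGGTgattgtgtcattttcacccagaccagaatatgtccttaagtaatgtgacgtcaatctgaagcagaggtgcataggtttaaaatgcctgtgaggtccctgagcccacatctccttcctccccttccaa
Prf1: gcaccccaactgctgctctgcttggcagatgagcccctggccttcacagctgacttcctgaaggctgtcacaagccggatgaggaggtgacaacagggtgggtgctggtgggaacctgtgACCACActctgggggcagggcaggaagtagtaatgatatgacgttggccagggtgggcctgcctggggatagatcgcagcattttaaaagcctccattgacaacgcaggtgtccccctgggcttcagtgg

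In Gzmc, Gzmd and Gzmf the word occurs first as ACCACA and further on as TGTGGT. The first lies at -174 to -169 in Gzmc and Gzmd and at -195 to -190 in Gzmf, counted back from the start site, and the second at -108 to -103, -112 to -107 and -133 to -128. Gzme and Gzmg hold the same arrangement. Gzmb holds TGTGGT at -93 to -88 and -34 to -29, and Prf1 holds ACCACA at -130 to -125. The RefSeq start of Gzmb lies 74 bases from its GENCODE start, and those of Gzmd and Gzmf lie 15 and 10 bases away. The RefSeq start of Gzmk lies 44943 bases from its GENCODE start, and Gzmm has a second RefSeq window 4806 bases away that does not hold the word. Over the 300-base windows that also take in 50 bases after the start, TGTGGT on either strand occurred at the RefSeq start used in 9 of 10 members (not in Gzmk) and in 16.8% of 32851 RefSeq windows; 6 members (Gzmb to Gzmg) held at least 2 copies, as did 1.81% of windows. The windows of Gzmc to Gzmg are themselves alike (86.1% to 94.0% identical in all pairs), so these are not independent occurrences. The other words searched on both strands, with overlaps between kinds not removed, were GGAAGT for ETS factors (7 members, 23.8% of windows), TGACGTCA for cyclic AMP response element binding factors (Gzmc, Gzmf and Gzmg; 1.79%), TGACTCA for AP1 (Gzmb; 5.20%), TTCNNNGAA for STAT factors (Gzmb and Gzmm; 8.30%), TATAAA (0 members; 13.6%) and AGGTGTGA for T-box factors (0 members; 1.28%). A word match describes the letters of a window and not binding.

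Member transcripts lay mostly in T-like and NK-like cells of both tissues. Kept tumour cells held 4526 member UMIs and kept lymph node cells 1912, and T-like and NK-like cells took 78.8% [77.6% to 80.0%] and 84.2% [82.4% to 85.8%] of them. These shares depended on the clustering: with each library clustered on its own, where no NK-like cluster was named, they were 48.8% and 40.6%. The lymphocytes that carried them differed. In the tumour 54.7% of member UMIs lay in 363 CD8 T-like cells and 20.4% in 22 NK-like cells, whereas in the lymph node 26.0% lay in 1597 CD8 T-like cells and 42.7% in 65 NK-like cells. A small number of cells held most of the signal: 9 cells carried 50% of the member UMIs of the tumour library and 28 cells those of the lymph node library.

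The genes divided between the lineages. Prf1 had 508 UMIs in 218 tumour cells and 264 in 192 lymph node cells, and 81.7% and 90.2% of them lay in T-like and NK-like cells. Gzmb, the main caspase-activating granzyme, had 779 UMIs in 237 tumour cells and 435 in 137 lymph node cells. Gzma had 1153 and 850 UMIs, and NK-like cells alone took 46.9% and 78.4% of them. Gzmk, a tryptase of early memory CD8 T cells, had 127 and 97 UMIs and none in NK-like cells of either tissue. Gzmc had 344 UMIs in the tumour and 96 in the lymph node, where 55 of the 96 lay in 1 cell. Gzmf had 872 and 11. Gzmd, Gzme and Gzmg had 335, 185 and 184 UMIs in kept tumour cells and 0 in the kept lymph node cells. Gzmm stood apart, with 39 UMIs in 39 tumour cells, of which 2 lay in T-like or NK-like cells, and 159 in 115 lymph node cells.

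CD8 T-like cells of the primary tumour carried high levels of perforin and of the granzymes other than Gzmm. A Cd3 UMI was found in 346 of the 363 tumour and 1572 of the 1597 lymph node cells of the class, and a Cd8 UMI in 281 and 1078. Prf1 stood at 383 [344 to 425] CPM in the 363 tumour cells and at 21.9 [18.3 to 25.9] CPM in the 1597 lymph node cells, a log2 ratio of tumour over lymph node of 4.13 [3.84 to 4.43] (0.5 counts added to each side). Its transcript was detected in 41.6% of cells in the tumour class and 6.39% in the lymph node class. Gzmb stood at 530.3 [485 to 579] and 16.8 [13.7 to 20.3] CPM, a log2 ratio of 4.98 [4.67 to 5.31], and was detected in 35.3% and 2.25% of cells. With cells gated by marker UMIs in place of clusters, the tumour levels were 295 CPM for Gzmb and 219.5 for Prf1, and the log2 ratios 4.28 and 3.59. Tumour CD8 T-like cells held a median of 1938 UMIs and lymph node ones 3547; with every cell thinned to 1000 UMIs, leaving out 28 tumour and 3 lymph node cells with fewer, the shares were 24.1% against 0.895% for Gzmb and 25.7% against 1.86% for Prf1. In cells that should lack these genes, the thinned shares were 0.0576% for Gzmb and 0.0398% for Prf1 in tumour cancer-like cells (0.522% and 0.457% before thinning; median 14062 UMIs), and 0.0848% for Prf1 in lymph node B-like cells (median 1800 UMIs). Gzmb was found in 0 of 4618 B-like cells, which allows a share of cells with a UMI of up to 0.0650%.

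The tryptases followed the same direction with fewer carriers. Gzma stood at 346 [309 to 385] CPM in tumour and 13.3 [10.6 to 16.5] CPM in lymph node CD8 T-like cells, a log2 ratio of 4.69 [4.34 to 5.07]. The tumour value rested on 19 of 363 cells (5.23%), and without the 10 CD8 T-like cells richest in members in each library the log2 ratio was 3.49. It was 5.24 with doublets kept, 5.37 with no upper limit on detected genes and 5.47 at resolution 2.0 of the clustering. Gzmk stood at 77.9 [61.1 to 97.9] and 3.29 [2.01 to 5.08] CPM, a log2 ratio of 4.54 [3.84 to 5.36]. The ratio was 2.32 [1.88 to 2.77] with cells gated by marker UMIs, 3.79 with doublets kept and 5.60 [4.66 to 6.86] without the 10 richest cells. Gzmk was spread thinly, in 49 tumour cells (13.5%) with at most 5 UMIs in a cell, and in 8 lymph node cells (0.501%).

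Among CD8 T-like cells, the chromosome 14 granzymes C to G lay almost entirely in the tumour. Gzmf stood at 615 [565 to 667] CPM there, from 576 UMIs, against 2 UMIs in the lymph node, a log2 ratio of 10.55 [9.01 to 13.92]; the lymph node count is under the limit of 3, so the size of that difference is poorly set. Gzmd stood at 193 [166 to 223], Gzmg at 134 [112 to 160.1] and Gzme at 109 [88.7 to 132] CPM in the tumour, with 0 UMIs in the lymph node class. Against the limit of 3 counts over that class, they were at least 392-fold, 273-fold and 221-fold higher in the tumour. These bounds rest on the richest cells: without the 10 CD8 T-like cells with most member UMIs in each library, the intervals of the log2 ratios began at 6.37 for Gzmd, 5.41 for Gzme and 1.54 for Gzmg. Gzmc stood at 251 [219.7 to 285] against 9.20 [6.95 to 11.9] CPM, but 55 of the 56 lymph node UMIs came from 1 cell that held 0 Cd3 and 0 Cd8 UMIs and 1 Cd4 UMI; without it the lymph node level was 0.164 CPM.

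Gzmm was the one member with the opposite order. It stood at 1.07 [0.0270 to 5.95] CPM in tumour CD8 T-like cells, from 1 UMI, and at 16.9 [13.8 to 20.5] CPM in the lymph node, from 103 UMIs in 71 cells, a log2 ratio of -3.41 [-9.30 to -1.48]. The tumour count lies under the limit of 3, so the size of that difference is poorly set. It was lower in the tumour under each of 9 alternative choices of cells or settings, with log2 ratios from -5.00 to -3.23.

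**Figure D1:**
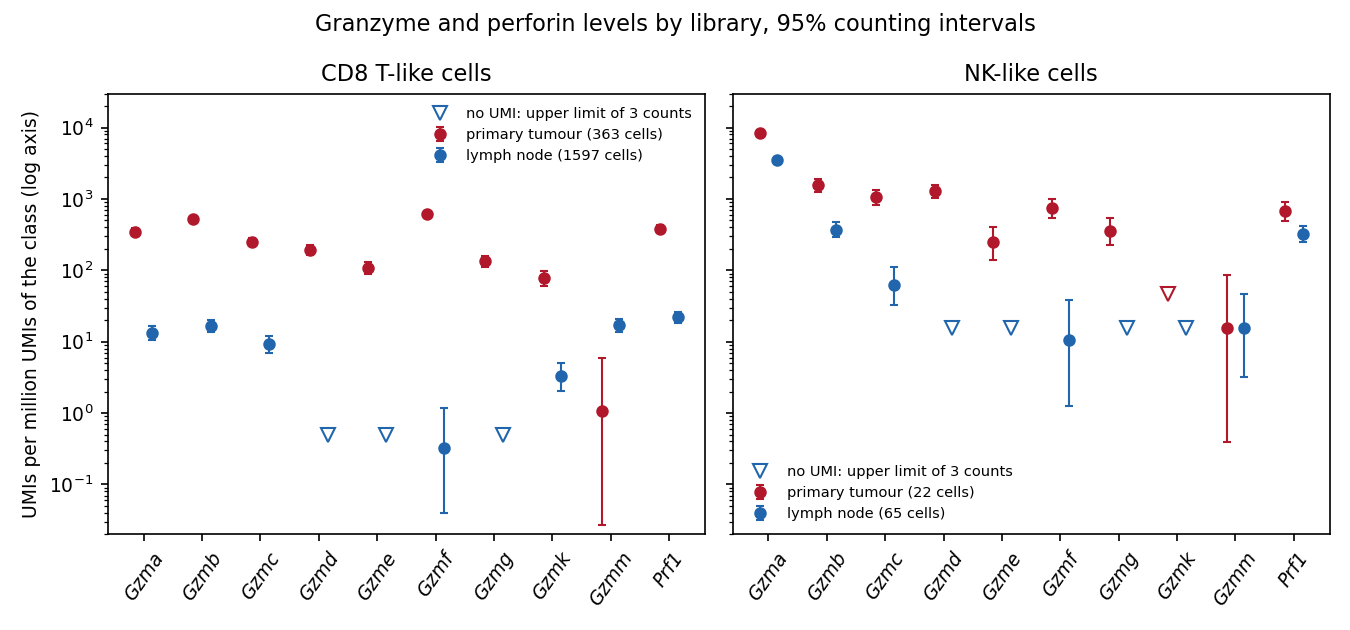
Level of each member (CPM, log axis) in CD8 T-like and NK-like cells of the primary tumour and the lymph node, with exact 95% Poisson intervals as bars; a level of 0 is drawn as an open triangle at the limit of 3 counts. In CD8 T-like cells Gzmb stands at 530.3 in the tumour and 16.8 in the lymph node, and Gzmm is the one gene drawn higher in the lymph node.

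The members' counts in CD8 T-like cells stand beside those of all genes. Of 5201 genes with at least 100 UMIs in either CD8 T-like class, 20.4% were at least 2-fold higher in the tumour and 8.27% at least 2-fold lower. Of the 10 members, 9 had that many UMIs; 8 of these were at least 2-fold higher and Gzmm was lower, with a median log2 ratio of 4.98 beside 0.32 over all genes. Gzmk, with 73 and 20 UMIs, was under the minimum. Gzma, Gzmc, Gzmd, Gzme, Gzmf and Gzmg reached it through the tumour alone, the smaller class in UMIs, and so had to be higher there. Gzmm reached it through the lymph node alone, and Gzmb and Prf1 reached it in both. The genes were also chosen with such values in view, so nothing is read from these counts. Cells in the tumour class with a UMI of the epithelial keratins Krt8 or Krt18 numbered 107 of 363 (29.5%), against 187 of 1597 (11.7%) in the lymph node. Without all of them, the log2 ratios were 5.12 for Gzmb, 4.17 for Prf1, 4.12 for Gzma and 3.48 for Gzmc.

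Genes that serve the same granules were counted by list, beside the all-gene shares of 20.4% at least 2-fold higher and 8.27% at least 2-fold lower. Among inhibitors that shield the cell from its own granzymes, 3 of 5 met the minimum and all 3 were at least 2-fold higher in tumour CD8 T-like cells: Serpinb9, the inhibitor of granzyme B, at 294 against 38.9 CPM (log2 ratio 2.92), and its relatives Serpinb6a (2.90) and Serpinb6b (2.31). Among genes of granule docking and release, 9 of 10 were found and 5 met the minimum, of which 3 were higher and none lower by 2-fold. These were Nkg7, a granule membrane protein, at 1287 against 247 CPM, Vamp8 (log2 ratio 2.25) and Lamp1 (1.45). Among genes of packing and activation, 4 of 5 met it and differed in both directions. Ctsc, the protease that trims granzymes to their active form, stood at 108 against 44.5 CPM, and Ctsl at 29.9 against 73.1 CPM.

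Among transcription factors of the effector programme, 7 of 9 met the minimum, 6 were at least 2-fold higher and 1 lower, beside the same 20.4% and 8.27% of all genes. Zeb2 (log2 ratio 4.38), Id2 (3.92) and Eomes (3.06) were the largest, and Tcf7, a factor of naive and memory cells, was lower (-1.97). Among the other killing pathways, 3 of 5 genes met it and all 3 were higher: Ifng, at 325 against 8.54 CPM, Tnfsf10 (log2 ratio 4.58) and Fasl (3.58). Ifng, Tnfsf10, Fasl and, above, Zeb2 met the minimum through the tumour alone and so had to be higher there. The medians of the lists were 2.90 for inhibitors, 1.45 for release, 0.01 for packing, 2.07 for transcription factors and 4.58 for the other killing genes.

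Within the CD8 T-like class the members split by cluster, and different clusters held most of the class in each tissue. Tumour cells lay in cluster 0 (272 cells) and cluster 2 (87 cells), and lymph node cells in clusters 5, 6 and 9 (531, 317 and 740 cells). Cluster 2 was the richest. In its tumour cells Gzmf stood at 1990.1 CPM, Gzma at 1035, Gzmb at 931, Prf1 at 717, Gzmd at 588 and Gzmg at 487. Without the cell richest in the gene, Gzmf stood at 1506, Gzmd at 418 and Gzmg, found in 7 cells, at 251 CPM. Cluster 0 held Gzmb at 392, Prf1 and Gzmc at 269 each, Gzmf at 123 and Gzma at 95.7 CPM. Without the cell richest in the gene, Gzmc stood there at 133, Gzmf at 43.2 and Gzma at 24.7 CPM. The inhibitory receptors Pdcd1, Lag3 and Havcr2 stood at 435, 282 and 197 CPM in cluster 2 and at 242, 135 and 124 in cluster 0. Gzmk was present in both, at 125 and 55.3 CPM.

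Only 8 lymph node cells fell in cluster 2, and they held granzyme B and perforin at high level. Gzmb stood at 652 CPM in them, Prf1 at 589 and Gzmk at 189, with 0 UMIs of Gzmc, Gzmd, Gzme, Gzmf and Gzmg among them, which allows up to 63.1 CPM of each at the limit of 3 counts. Pdcd1 stood at 547 CPM, near the level of the tumour cells of that cluster. One of these 8 cells held 19 of the 31 Gzmb UMIs and the same number of the 28 Prf1 UMIs. Cluster 6, marked by the chemokine Ccl5 at 5258 CPM and Ly6c2 at 1056, held Gzmm at 63.0, Gzmb at 45.4, Gzma at 39.6 and Prf1 at 22.7 CPM. Of the 103 Gzmm UMIs of lymph node CD8 T-like cells, 86 lay there. Clusters 5 and 9, with Lef1 at 421 and 584 CPM and Ccl5 at 209 and 86.8, held Prf1 at 15.1 and 16.5 CPM and Gzmb at only 0.916 and 2.81. Cluster 5 held 33 Prf1 UMIs beside 10 of Gzmm, 4 of Gzmk and 2 each of Gzma and Gzmb, and cluster 9 held 41 beside 10 of Gzma and 7 each of Gzmb and Gzmm. The Prf1 UMIs lay in 31 and 40 cells with at most 2 each.

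**Figure D2:**
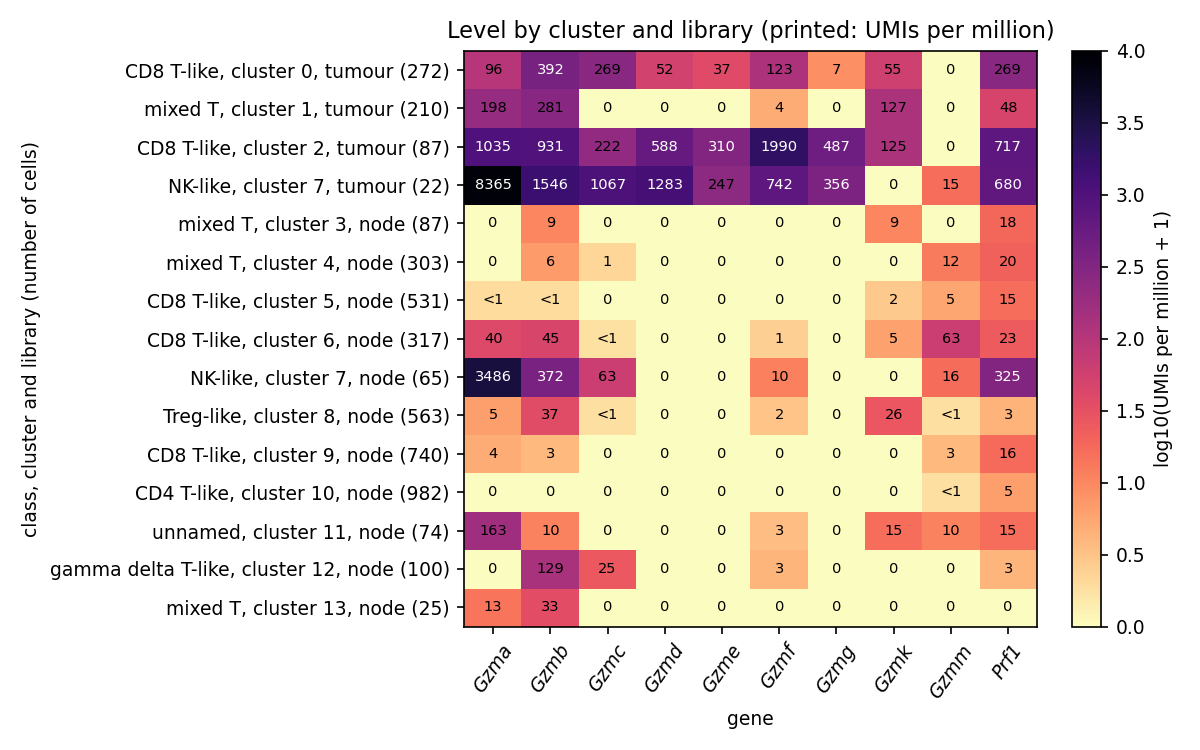
Level of each member (CPM, printed in each tile; the colour is log10 of the value plus 1) for each gene (columns) in each T-like, NK-like or unnamed cluster and tissue with at least 20 cells (rows). The granzymes C to G are seen mainly in tumour cells of clusters 0 and 2 and in tumour NK-like cells, while Gzmm is highest in cluster 6 of the lymph node.

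NK-like cells were the richest class in both tissues, on 22 tumour and 65 lymph node cells, of which 13 and 35 held a UMI of the NK receptor genes Ncr1 or Klrb1c. Gzma led, at 8365 [7675 to 9100.4] CPM in the tumour and 3486 [3227 to 3761] in the lymph node, and was detected in 20 of 22 and 39 of 65 cells. Gzmb stood at 1546 [1258 to 1881] and 372 [290.3 to 469] CPM and Prf1 at 680.3 [494 to 913] and 325 [249 to 416] CPM. The log2 ratios of tumour over lymph node were 1.26 [1.10 to 1.43] for Gzma, 2.05 [1.60 to 2.52] for Gzmb and 1.07 [0.48 to 1.65] for Prf1. Gzmc stood at 1067 and 62.8 CPM, and the tumour value came from 3 cells. Gzmd, Gzme and Gzmg (1283, 247 and 356 CPM in the tumour, 0 UMIs in the lymph node) and Gzmf (742 and 10.5 CPM) rested on 1 or 2 tumour cells. Gzmk had 0 UMIs in both, and Gzmm stood at 15.5 CPM in the tumour, from 1 UMI, and 15.7 in the lymph node.

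These NK-like differences depended on few cells. In the tumour 1 cell held 374 of the 925 member UMIs (40.4%), with 214 of Gzma, 46 of Gzmd, 36 of Gzmb and 33 of Gzmc. Without the cell richest in Gzma in each library, the Gzma log2 ratio was 0.79. In the lymph node class 16 of 65 cells held a Cd3 UMI and 2 held at least 10 UMIs of the mast cell protease Cpa3, against 0 of either in the tumour. Without those 18 cells the lymph node levels were 4547 CPM for Gzma, 484 for Gzmb and 399 for Prf1, and the log2 ratios 0.88, 1.67 and 0.77. When NK cells were gated by marker UMIs in place of clusters, the Gzma ratio turned to -0.17 [-0.34 to 0.01], and those of Gzmb and Prf1 were 0.76 and 0.43. Of 2877 genes with at least 10 UMIs in either class, 7.02% were at least 2-fold higher in the tumour and 20.3% at least 2-fold lower; 8 members had that many UMIs, and all 8 were at least 2-fold higher, of which Gzmd, Gzme, Gzmf and Gzmg met the minimum through the tumour alone and so had to be higher. Gzmk and Gzmm were under that minimum.

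In NK-like cells the partner genes differed in both directions, and some rested on few UMIs. Among those that met the same minimum of 10 UMIs, none of 5 release genes, 1 of 3 inhibitors, 2 of 4 packing genes, 4 of 8 transcription factors and 1 of 2 other killing genes lay past 2-fold, beside the all-gene shares just given. Runx3 (1.75 [1.25 to 2.25]) and Eomes (1.19 [0.55 to 1.81]) were higher in the tumour. Srgn, the proteoglycan on which granzymes are stored, was lower (-1.04 [-1.48 to -0.64]), as was Ifng (-1.55 [-2.89 to -0.57]), in the opposite direction to its ratio in CD8 T-like cells; that opposition was not tested. Serpinb1a had 0 tumour UMIs against 54 in the lymph node and was at least 6.09-fold lower, against the limit of 3 counts over the tumour class. Ctsl had 0 against 12, which at the limit of 3 counts is 1.35-fold lower, less than the 2-fold used for the counts. The interval of its log2 ratio reached up to 0.09 and so includes no difference. Zeb2 had 2 UMIs against 25 and Hopx 1 against 10, with log2 ratios of -1.79 [-5.20 to -0.08] and -1.24 [-7.20 to 1.05], and the interval of Hopx also includes no difference.

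Other T-like classes each used part of the set. Gamma delta T-like cells of the lymph node (100 cells, with the delta chain gene Trdc at 366 CPM and Il23r at 70.7) held Gzmb at 129 [93.1 to 175] CPM in 16 cells and Gzmc at 24.6 [10.6 to 48.5] CPM in 5 cells, with 1 UMI of Prf1 and 0 of Gzma. Their Gzmb level lay above that of lymph node CD8 T-like cells, and the intervals did not overlap. In 212 mixed T-like cells of the tumour, Gzmb stood at 276 [216 to 349], Gzma at 195 [144 to 257] and Gzmk at 125 [85.2 to 176] CPM, while Prf1 was lower than in CD8 T-like cells, at 46.7 [24.1 to 81.6] CPM, and Gzmc to Gzmg had 1 UMI between them. This class was shallow, with a median of 1025 UMIs and 101 cells under 1000. A Cd3 UMI was found in 151 of its cells, Cd8 in 67, Cd4 in 22 and Foxp3 in 20. Cd8 was found in 23 of the 41 cells with Gzmb and in 18 of the 25 with Gzmk. The 982 CD4 T-like cells of the lymph node held Prf1 at 5.29 and Gzmm at 0.814 CPM and no UMI of the other 8 members. Tumour CD4 T-like and Treg-like clusters held 2 and 7 cells and are not described.

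Treg-like cells of the lymph node (563 cells) held Gzmb at 36.6 [29.4 to 45.1] and Gzmk at 25.5 [19.6 to 32.7] CPM, mostly in different cells: 4 cells held both. The class was mixed by its markers: 145 cells held a UMI of Foxp3, the defining factor of regulatory T cells, 233 a Cd4 UMI and 96 a Cd8 UMI. Of the 39 cells with Gzmb, 21 held Foxp3 and 12 held Cd8. Of the 28 cells with Gzmk, 0 held Foxp3 and 17 held Cd8. Over all T-like cells with a Foxp3 UMI, Gzmb was found in 9 of 29 tumour cells (302 CPM) and 21 of 160 lymph node cells (51.4 CPM). Leaving out those with a Cd8 UMI, it was found in 6 of 24 tumour cells, and Prf1 in 0 of them. Tumour T-like cells with a Cd4 UMI and no Cd8 or Foxp3 UMI numbered 50, of which 5 held Gzmc, 5 held Gzmd, 5 held Gzme and 3 held Gzmb. Every Gzmd and Gzme UMI of tumour T-like cells lay in the CD8 T-like class, so by cluster the cells with those genes belong to it.

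Member UMIs were unevenly spread over cells. In tumour CD8 T-like cells, members made up 0.264% of all UMIs (2474 UMIs, 2639.8 CPM) and 228 of 363 cells (62.8%) held at least 1; in the lymph node 216 of 1597 (13.5%) did, for 81.7 CPM. Of the tumour UMIs, 50% lay in 6 cells and 60.0% in the 10 richest. The richest tumour cell, in cluster 2, held 395 member UMIs among 9184: 134 of Gzmf, 61 of Gzmg, 51 of Gzma, 46 of Gzmd, 44 of Gzmb, 36 of Prf1, 19 of Gzme and 4 of Gzmc. It also held 31 Cd3 and 8 Cd8 UMIs and 0 keratin UMIs. The next held 282 among 20995, with 94 of Gzmc, 54 of Gzmf and 48 of Gzma. The lymph node CD8 T-like cell with the most, after the Gzmc cell named above, held 53: 19 of Gzmb, 19 of Prf1 and 15 of Gzma. Because of this, levels and shares of cells answer different questions: without the 10 richest CD8 T-like cells in each library, Gzmb in the tumour stood at 369.6 CPM and Prf1 at 325 CPM, and the Gzmb log2 ratio was 5.71.

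**Figure D3:**
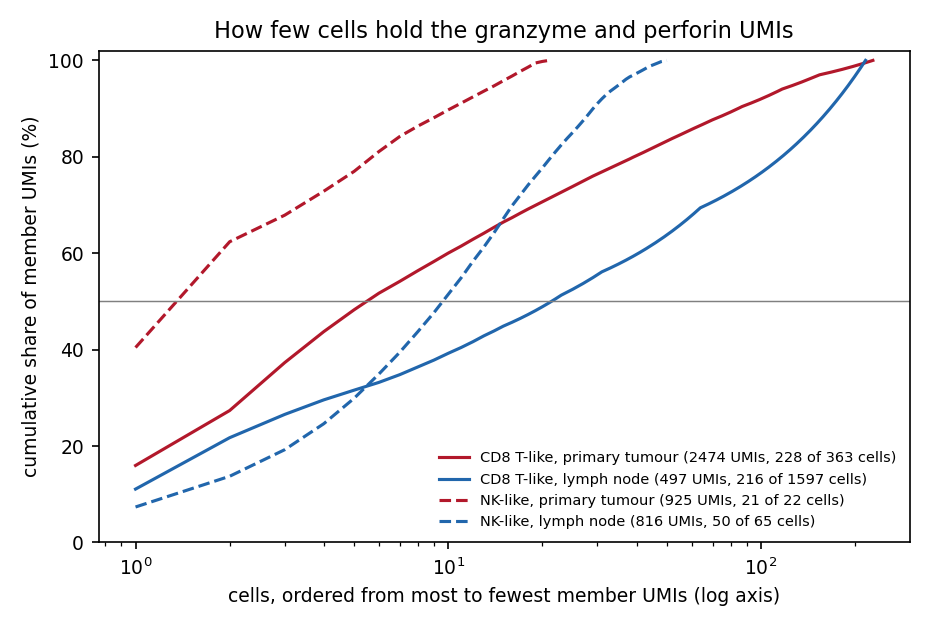
Cumulative share of member UMIs (per cent) against cells ordered from richest to poorest (log axis), for CD8 T-like (solid) and NK-like (dashed) cells of both tissues. In tumour CD8 T-like cells 6 cells carry 50% of the UMIs.

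Cells with several members were frequent in the tumour and rare in the lymph node. Among the 363 tumour CD8 T-like cells, 135 held none of the 10 genes, 115 held 1, 60 held 2, 25 held 3 and 28 held 4 or more, up to 8 in 3 cells. Among the 1597 lymph node cells, 1381 held none, 187 held 1, 24 held 2 and 5 held 3. Cells with more members also had more UMIs: the median was 1559 in tumour cells with none and 3953.5 in those with at least 4. In NK-like cells, 14 of 22 in the tumour and 15 of 65 in the lymph node held at least 3.

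Tumour CD8 T-like cells with granzyme B held perforin more often than those without. In tumour CD8 T-like cells Prf1 was detected in 79 of 128 cells (61.7%) with Gzmb and in 30.6% of those without; the median depth was 2589 and 1735 UMIs. With cells thinned to 1000 UMIs the shares were 39.2% [28.5% to 50.7%, approximate on expected counts] and 21.4%. Gzma rarely came alone: 15 of 19 cells (78.9%) with it also held Gzmb, against 32.8% of the others. Gzmk was accompanied by Gzmb in 24 of 49 cells (49.0%), against 33.1% of cells without it, and by Prf1 in 55.1%, against 39.5%. It was accompanied by Gzmf in 8.16%, close to the 8.92% of the others. In the lymph node 4 of 36 cells (11.1%) with Gzmb held Prf1, beside 6.28% of the others. In NK-like cells, 18 of 20 cells (90%) with Gzma held Gzmb in the tumour, beside 19 of all 22 cells of the class. In the lymph node 22 of 39 cells (56.4%) did, beside 25 of all 65.

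Cells with granzymes C to G were few in the tumour, and more of them held several of the 5 genes than 1. At least 1 of the 5 was found in 51 of 363 CD8 T-like cells (14.0%), 29 of these held at least 2 and 5 held all 5, while 22 held 1. They had 1220 UMIs, of which 832 (68.2%) lay in the 5 richest cells. Gzmb was found in 38 of the 51 (74.5%) and in 28.8% of the remaining CD8 T-like cells; median depths were 2735 and 1852.5 UMIs. Cells with Gzmf numbered 32, of which 28 held Gzmb and 23 held Prf1. Of the 24 cells with Gzmd, 18 held Gzmf, 14 held Gzme, 14 held Gzmc and 9 held Gzmg, and each of the 9 cells with Gzmg held Gzmb and Gzmd. As the transcript ends of Gzmd to Gzmg are alike in part, their counts within a cell are uncertain relative to each other. Some carriers held Cd4: a Cd4 UMI was found in 5 of 26 cells with Gzmc, 6 of 24 with Gzmd and 6 of 22 with Gzme. It was found in 2 of 32 cells with Gzmf and 2 of 9 with Gzmg, against 37 of 363 in the class. A Cd8 UMI was found in 16 of 26, 18 of 24, 16 of 22, 30 of 32 and 8 of 9, in that order of genes. The proliferation marker Mki67 was found in 9 of the 51 cells and in 40 of the remaining 312. In the lymph node, 3 of 1597 CD8 T-like cells held any of the 5.

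**Figure D4:**
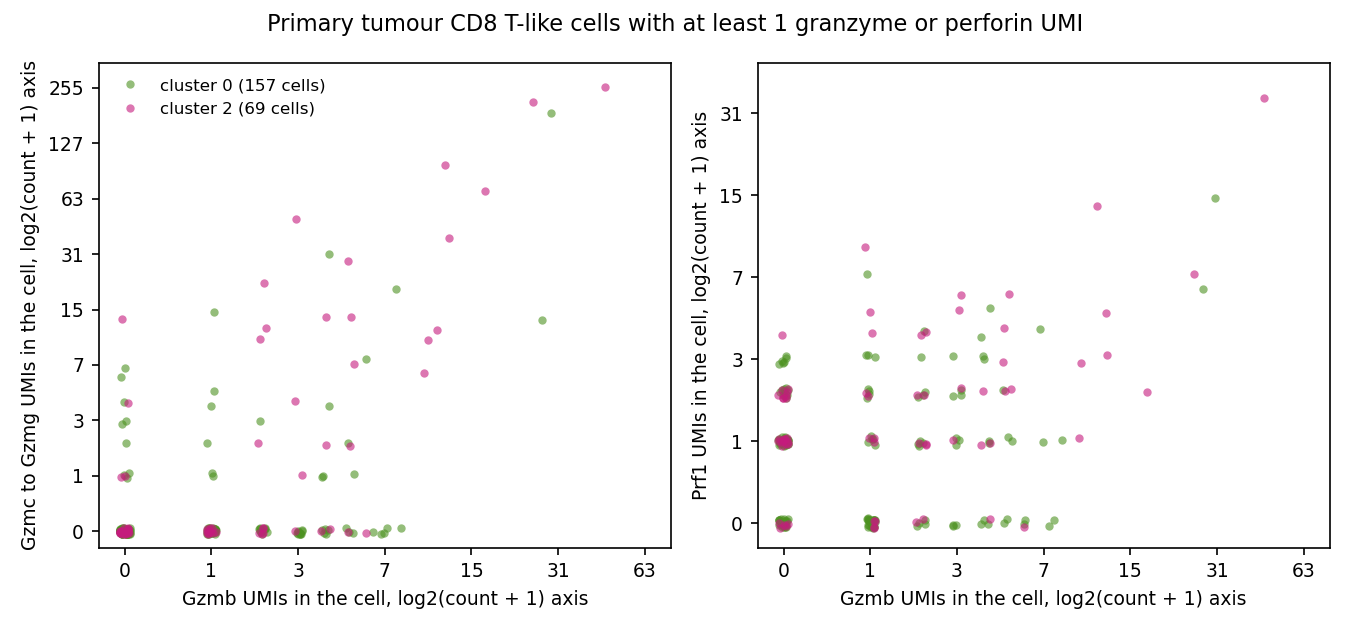
Gzmb UMIs per cell against the summed Gzmc to Gzmg UMIs (left) and against Prf1 UMIs (right), on log2(count + 1) axes with slight jitter. Each point is a tumour CD8 T-like cell with at least 1 member UMI, 157 of cluster 0 and 69 of cluster 2, and the cells highest in the granzymes C to G, with up to 264 UMIs, also hold Gzmb.

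Outside T-like and NK-like cells, 960 tumour and 303 lymph node member UMIs were counted, and a few cells held most of them. In the tumour 9 cells with at least 10 member UMIs each carried 73.75%, and in the lymph node 5 such cells carried 67.0%. A UMI of Cd3, Cd8, Ncr1 or Klrb1c was found in 7 of the 9 and 2 of the 5. The richest lay in a cancer-like cluster and held 337 member UMIs, 191 of them Gzmf, beside 19 Cd3, 9 Cd8 and 53 keratin UMIs. A cell in a dendritic cell-like cluster held 164, 86 of them Gzma, with 0 Cd3 and 1 NK marker UMI, and a macrophage-like cell held 97, 88 of them Gzma, with 2 Cd3 UMIs. In the lymph node, 3 cells of a neutrophil-like cluster held 51, 29 and 18 Gzmb UMIs with 0 UMIs of the neutrophil gene S100a8 and 0 of Cd3. The last of them held 19 UMIs of the basophil protease Mcpt8 and 4 of Cpa3. Because of these 3 cells, the neutrophil-like class of the lymph node (37 cells) stood at 1073 CPM for Gzmb, second only to tumour NK-like cells. A fibroblast-like tumour cell held 16 Gzme and 7 Gzmd UMIs with none of Cd3, Cd8 or the NK markers. Whether such droplets held more than 1 cell was not tested beyond the doublet calls.

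Apart from those cells, the members were low in the other classes with at least 20 cells. With the richest cell of each class and gene left out, Gzmb stood at 526 CPM in lymph node neutrophil-like cells, because of the other cells named above, and at 12.1 in tumour ones. Gzma then stood at 28.2 and Prf1 at 10.1 CPM in an unnamed lymph node cluster of 74 cells that held both B cell and T cell markers. Every further value was at most 7.65 CPM. In tumour cancer-like cells (6125 cells) Prf1 stood at 0.730, Gzmb at 0.782 and Gzma at 0.401 CPM. Gzmm there was 32 single UMIs in as many cells (0.329 CPM), which is most of the 39 Gzmm UMIs of that library. In the lymph node, endothelial-like cells held 16 Gzmm UMIs in 14 of 191 cells (4.24 [2.42 to 6.88] CPM), against 0.409 [0.112 to 1.05] CPM in B-like cells; the median depths were 16085 and 1800 UMIs.

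Ordered over the 26 class-by-tissue groups with at least 20 cells, tumour NK-like cells had the highest level of Gzma, Gzmb, Gzmc, Gzmd, Gzme, Gzmf, Gzmg and Prf1. For Gzme, Gzmf and Gzmg that place came from 1 cell each: without the cell richest in the gene, the levels were 34.4, 0 and 0 CPM, below those of tumour CD8 T-like cells. For Gzma the order was tumour NK-like, lymph node NK-like and then tumour CD8 T-like cells, with counting intervals that did not overlap. Those intervals do not cover differences between cells, and 1 tumour NK-like cell held 214 of the 541 Gzma UMIs. Without that cell the tumour level was 5621 CPM. With NK cells gated by marker UMIs, the log2 ratio of Gzma was -0.17, so the order of the NK-like classes depended on the choice of cells. The interval of tumour CD8 T-like cells overlapped that of tumour dendritic cell-like cells, where 1 cell held the Gzma UMIs. For Gzmb, the interval of tumour NK-like cells overlapped that of the lymph node neutrophil-like class. For Prf1, tumour NK-like cells were followed by tumour CD8 T-like (383 CPM) and lymph node NK-like cells (325), whose intervals overlapped, and then by mixed T-like tumour cells. For Gzmf, the intervals of tumour NK-like and tumour CD8 T-like cells overlapped. Gzmk was highest in mixed T-like tumour cells, with an interval that overlapped that of tumour CD8 T-like cells, and Treg-like lymph node cells came next. For Gzmm the order was lymph node CD8 T-like, lymph node NK-like and tumour NK-like cells, at 16.9, 15.7 and 15.5 CPM, which could not be separated.

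The genes most like Gzma, Gzmb, Gzmc, Gzmk, Gzmm and Prf1 over those 26 groups are given as a description, by Pearson's r of log2(CPM + 10) among 12336 genes. The other members were not taken into this comparison. The groups share libraries, and r follows a few groups with high levels. Prf1 was nearest to Klre1 (0.945), an NK receptor gene, Tbx21 (0.943), which encodes the effector transcription factor T-bet, and Wdr95 (0.943). Gzma was nearest to the NK receptor genes Klrb1b (0.907), Klre1 (0.897) and Klri2 (0.895). Gzmb was nearest to the interleukin 18 receptor subunit Il18rap (0.900), Gzmc (0.863) and Sytl3 (0.836), a synaptotagmin-like gene. Gzmc was nearest to Gzmb (0.863), Qrfp (0.843) and Gzmg (0.822). Gzmk was nearest to Neb (0.875), Syt11 (0.867) and Foxp3 (0.862), although among T-like cells with a Foxp3 UMI, Gzmk was found in 1 of 29 in the tumour and 0 of 160 in the lymph node. Gzmm was nearest to Pde2a (0.800), Klra7 (0.740) and Zfp689 (0.713).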

How the data were processed

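Single-cell RNA was measured in 1 primary tumour and 1 lymph node library. The values are raw UMI counts, as deposited by the authors, who made them with Cell Ranger from 3′ libraries on GRCm38; the submitters' processing notes give version 2.1.1 and the matrix headers 5.0.0. Cells with 201 to 6000 detected genes and at most 5% mitochondrial UMIs were kept, as in the methods of the study. Doublets were called per library with Scrublet in scanpy 1.11.5: 391 tumour cells (4.27%) were removed by its automatic threshold, and in the lymph node, where that threshold marked 0 cells, the top 6% of scores (616 cells, 5.98%) were removed. Counts were normalised to 10000 UMIs per cell and cell cycle scores were regressed out. The 2000 most variable genes of each library were joined, without the members and their partner lists. Their first 30 components were clustered (Leiden, resolution 1.0). T-like and NK-like cells were then clustered again with 20 components, and the other immune cells with 30. The rule that scored markers was set after the data were seen.

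All 10 members are reported, and list genes are named by the largest change in each direction, up to 3. The members and lists were chosen with earlier results of these data known. Levels came from summed counts (CPM), with exact Poisson, Clopper-Pearson or, for ratios, conditional binomial intervals. Thinned shares are expectations after drawing 1000 UMIs per cell, leaving out shallower cells. With 1 library per tissue no test was run. The calculations were tested on simulated data. Alternatives covered doublets, cell limits, clustering, gating, thinning and the richest cells. Transcript and promoter identities were computed over aligned bases, gaps left out, with Biopython 1.88. All matrices were used, and 17.2% of tumour and 11.6% of lymph node member UMIs lay in cells left out.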

Additional observations from a re-analysis of the deposited data

Results flagged for a closer look

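Member UMIs in the cells that were left out of every comparison numbered 942 in the primary tumour (17.2% of the 5468 in the table) and 252 in the lymph node (11.6% of 2164), which drew attention as signal in data not used by the report. In the tumour 786 of them lay in cells outside the limits on genes or mitochondrial UMIs and 156 in called doublets, over 247 cells. In the lymph node the numbers were 161 and 91, over 110 cells. Gzmd had 3 UMIs and Gzme 1 UMI in the deposited lymph node table, all of them in such cells.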

How the results depend on the processing

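Of 73 recalculated main values, 44 were taken as unchanged and 29 moved, none with a change of direction. Unchanged meant within the counting error of the main value, or above its lower end where a ratio had no upper end. Counts of members have no counting error, and for them 6 or 9 in place of 8 was taken as unchanged. The share of member UMIs in T-like and NK-like cells, in the tumour and lymph node, was 76.4% and 79.8% with doublets kept, 75.7% and 87.6% at resolution 2.0, 48.8% and 40.6% with each library clustered on its own and 92.0% and 77.7% with cells gated by marker UMIs. It was 80.5% in the tumour at a mitochondrial limit of 10% and 79.1% in the lymph node with no upper limit on genes. In tumour CD8 T-like cells Gzmb and Prf1 stood at 432 and 312 CPM at the 10% limit, 479 and 313 with no upper limit, 295 and 219.5 with gating, 422 and 337 as a mean over single cells, and 369.6 and 325 without the 10 richest cells. The Gzmb log2 ratio was 5.39 with separate clustering, 4.28 with gating and 5.71 without the 10 richest cells, and the Prf1 ratio 3.84 with no upper limit and 3.59 with gating. The share of cells with Gzmb that held Prf1 was 24.7%, 59.7% and 61.7% when thinned to 500 or 2000 UMIs or not thinned, which follows from depth by construction. Without the 10 richest cells, 3 members in place of 8 were at least 2-fold higher, because fewer reached 100 UMIs. The 1 further value that reversed was the Gzma ratio of NK-like cells with gating, at -0.17. Of 101 values for single genes and counts, 78 were unchanged by the same rules. For the other moved values the cause was not tested. Leaving out the richest cells, cells with keratin UMIs, or NK-like cells with Cd3 or Cpa3 was chosen after seeing the data.

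No paired analysis was possible because both libraries pool the same 6 mice and give no values per animal, so each tissue is 1 sample. Leaving out a replicate was likewise not possible, so no spread between animals is known. Separate clustering named no NK-like cluster, so NK ratios have no value there. Depth limits the rare members: in lymph node CD8 T-like cells, levels under 0.493 CPM, the limit of 3 counts, are not set apart from 0.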
